A study of Mus musculus with 26 samples.

Results

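The genes described here encode the proteins of the mitochondrial ribosome. They are the 76 of 13765 genes in the deposited table whose symbol starts with Mrpl or Mrps followed by a digit. By the role assigned to each symbol from general knowledge, 49 encode proteins of the large subunit, 26 encode proteins of the small subunit, and Mrps36 keeps a ribosomal name although its product is now described as a component of the 2-oxoglutarate dehydrogenase complex. Mrps30 and Mrps18a carry small-subunit names and are counted here with the large subunit, where their products are found. A further pair of family members stand in the table under the older symbols Mrp63 and Ict1, and these are given with the related genes below.

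The study sorted double positive (DP) cells, which carry both CD4 and CD8 and are normally a stage of T cell development in the thymus, from 3 tissues of female C57BL/6J mice aged 8 weeks. The groups were thymus, mediastinal adipose tissue and aortic arch, each with 4 pools and each pool made from 5 mice; no treatment or allele is named. Arch and adipose tissue were digested to free the cells, the gate was CD4+CD8b+TCR- and viable in every tissue, and each library held the polyadenylated RNA of 200 of 400 sorted cells, amplified for 18 cycles. The 26 libraries had been joined to 1 column per pool, so the pool is the replicate (n = 4 per tissue), and p-values measure the spread between pools.

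Mitochondria carry their own ribosomes, which translate the few proteins that the mitochondrial genome encodes, all of them subunits of the respiratory chain and ATP synthase. The ribosomal RNAs come from the mitochondrial genome, but every ribosomal protein is encoded in the nucleus, made in the cytosol and imported. Some of these proteins have bacterial homologues and others were added to the mitochondrial ribosome during evolution. T cells build up mitochondrial translation when they are activated and begin to divide.

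Values are normalised read counts, that is, read counts divided by 1 factor per pool. Differences are on the scale of log2(normalised read count + 20), with the standard error (SE) from limma, and a gene was called at a Benjamini-Hochberg adjusted p under 0.05 over all 9106 genes tested. All 76 family members had at least 100 normalised reads in at least 4 pools and were tested. Recovered reads per pool ranged from 11577253 to 34599519. All 10 DP markers examined, among them Cd4, Cd8a, Cd8b1, Rag1 and Dntt, had reads in every pool, and their summed level was 17465 to 20745 CPM (reads relative to the pool's total) in thymus, 5443 to 11388 in adipose tissue and 6930 to 7822 in arch. For 5 lists of markers of other cells (fibroblast, smooth muscle, macrophage, B cell and adipocyte), the highest sum of the 12 pools was in arch pool 4, arch pool 2 or adipose pool 1. In arch pool 4 the sum of 9 fibroblast markers was 6008 CPM. In arch pool 2 the sums of 6 smooth muscle and 8 macrophage markers were 1850 and 972 CPM, and in adipose pool 1 those of 6 B cell and 3 adipocyte markers were 1247 and 168 CPM. Their highest sums in thymus were 298 (fibroblast), 3.31 (smooth muscle), 13.6 (macrophage), 214 (B cell) and 12.8 CPM (adipocyte). Among the other pools, arch pools 1 and 3 also had smooth muscle sums above those of thymus, at 66.6 and 14.1 CPM. The sum of 4 endothelial markers was highest in adipose pool 1, at 210 CPM against at most 107 CPM in thymus. That of 3 NK and innate lymphoid markers was highest in adipose pool 2, at 191 CPM against at most 108 CPM in thymus. It was also above thymus in adipose pool 4, arch pool 1 and arch pool 3, at 170, 155 and 161 CPM. The part of these cells in the differences below was not tested. Counts of calls are also given without the 3 pools with the highest sums in the 5 lists, which keeps adipose pool 2. In bulk RNA, fewer cells that express a gene and less RNA per cell cannot be told apart.

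Promoter sequences are shown for the called member, Mrpl43, and for Mrps33, the member with the smallest p among those lower in arch than in thymus. Both are RefSeq windows of GRCm38.p6 that run from 250 bases before to 50 bases after a start site, on the minus strand, at chr19:45006393-45006692 and chr6:39810887-39811186. Capitals mark a match to the letters CCGGAAGT, a core site of the ETS family of transcription factors.
Mrpl43: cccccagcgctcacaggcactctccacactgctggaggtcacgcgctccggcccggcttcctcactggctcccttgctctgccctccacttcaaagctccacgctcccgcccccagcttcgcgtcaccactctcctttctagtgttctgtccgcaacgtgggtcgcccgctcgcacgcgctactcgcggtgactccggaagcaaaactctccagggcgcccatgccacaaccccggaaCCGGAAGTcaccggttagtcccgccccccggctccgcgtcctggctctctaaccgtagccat
Mrps33: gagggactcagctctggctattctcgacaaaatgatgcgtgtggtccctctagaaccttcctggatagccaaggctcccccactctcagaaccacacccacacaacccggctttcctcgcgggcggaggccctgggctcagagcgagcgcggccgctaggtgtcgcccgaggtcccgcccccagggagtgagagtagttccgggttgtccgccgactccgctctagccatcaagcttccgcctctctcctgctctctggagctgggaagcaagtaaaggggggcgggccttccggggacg
The match in Mrpl43 starts 12 bases before the start site, at position -12. No match to CCGGAAGT or to the other letters searched was found in the window of Mrps33.

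The search covered both strands of 73 windows of 67 members. CCGGAAGT was present in 16.4% of member windows and in 3.89% of all 32851 windows. AAGATGGC, letters bound by YY1, was present in 16.4% and 2.75%, and GCATGCGC, part of the site of NRF1, the nuclear respiratory factor, in 8 of 73 windows and 2.71%. The E-box CACGTG was present in 9.59% of member windows and 7.15% of all windows. No motif contains another, and a match is a description of the sequence, not of binding. The 76 genes lie on 17 chromosomes, with 10 of them on chromosome 11.

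Most of the family was detected in all pools. Of the 76 members, 71 had a read in every pool, and the mean level over 12 pools ran from 439 normalised reads (Mrps27) to 5170 (Mrpl18), with a median of 1497 against 878 for all genes tested. Per kilobase of exon, the level ran from 129 (Mrps25) to 4241 (Mrpl18). On this scale the median was 1136 for the large subunit and 928 for the small subunit. The 3 members with the highest mean were Mrpl18, Mrps14 and Mrpl43, and the 3 with the lowest were Mrps27, Mrps10 and Mrpl47.

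Summed over all 76 genes, the family took 6591 ± 191 CPM in thymus, against 5595 ± 758 CPM in adipose tissue and 6196 ± 401 CPM for the arch pools (SD, n = 4). The thymus pools were 6330, 6730, 6737 and 6566 CPM. The adipose pools were 4722, 6116, 6331 and 5210 CPM, and the arch pools 5826, 6765, 6073 and 6121 CPM. On the normalised counts the order of arch and thymus was the other way round, with sums of 134740 ± 10720 in arch and 128650 ± 5159 in thymus. The ranges of CPM in all 3 tissues overlapped, and adipose pools 1 and 4 were the lowest of the 12. Adipose pool 1 was also the pool with raised B cell and adipocyte markers, and it held the lowest value of the 12 for 16 of 76 members. The ratio of large-subunit to small-subunit reads was 2.11 ± 0.17 in thymus, against 2.03 ± 0.21 in adipose tissue and 2.29 ± 0.17 for the arch pools (SD, n = 4).

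**Figure D1:**
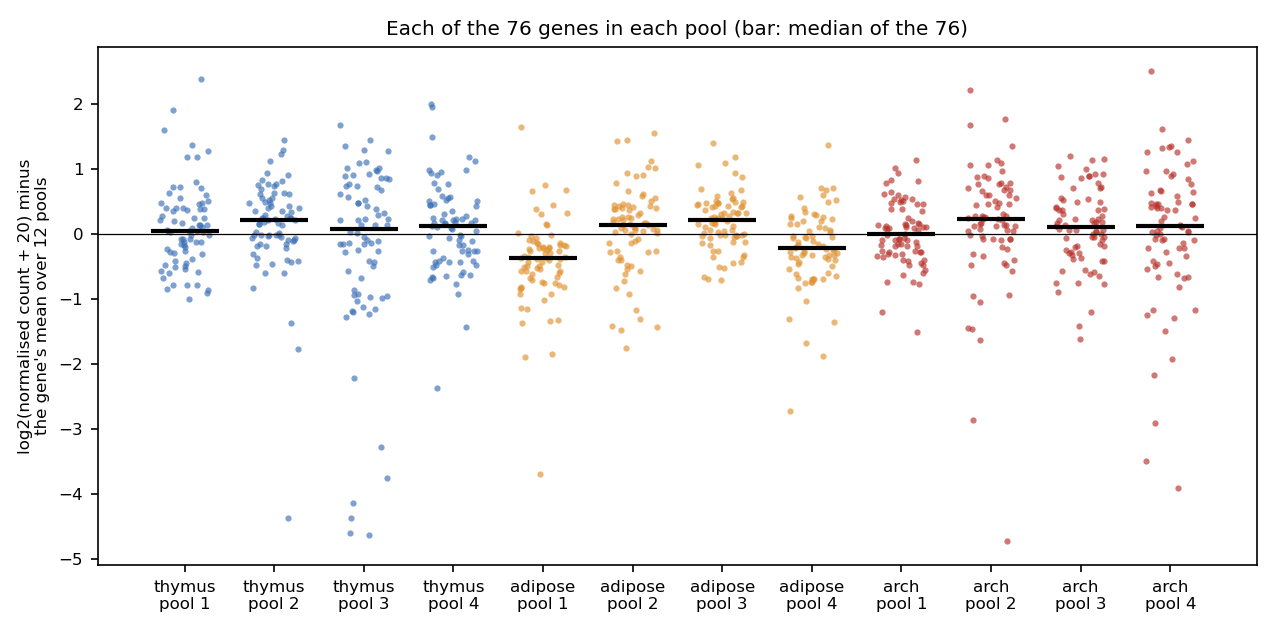
Each point is 1 of the 76 genes in 1 pool (x axis: 12 pools in 3 tissues; y axis: log2(normalised count + 20) minus the gene's own mean over the 12 pools), and the bar is the median of the 76. The median lies near 0 in most pools and at -0.38 in adipose pool 1, and the longest lower tail is in thymus pool 3, where 14 genes lie more than 1 below their own mean.

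In arch against thymus, limma called 1 of 76 members higher (Mrpl43) and 0 lower, where 6.57% of all genes tested were called in either direction and 3.99% were called higher. The edgeR test called 1 higher and 0 lower, and DESeq2 1 higher and 1 lower (Mrps33). Of the 9106 genes tested edgeR called 365. DESeq2 was run, here and below, on all 13765 genes of the table rather than on these 9106, and it called 1257. Without the 3 pools with the highest marker sums limma called 0 of 76 in this and in each other comparison. Of all genes tested it called 3.79% in arch against thymus, 2.91% in adipose tissue against thymus and 0.0% in arch against adipose tissue. In the same order 5, 2 and 2 members (6.58%, 2.63% and 2.63%) had an unadjusted p under 0.05, against 17.3%, 15.2% and 6.26% of all genes tested. With all pools, at an unadjusted p under 0.05 there were 4 members (5.26%): Mrpl43, Mrps2 and Mrps6 higher and Mrps33 lower. For all genes tested that share was 22.7%. The median difference was -0.02 for the members and -0.20 for all genes tested, and 42 of 76 members (55.3%) lay within 0.5 on the log2 scale against 34.2% of all genes. The 95% interval stayed within 2-fold in both directions for 13 members and reached 2-fold or more for the other 63, so for most members the absence of a call does not show equal levels. The pool values did not overlap for 3 members, Mrpl43 and Mrpl17 higher and Mrps33 lower, where 13.2% of all genes tested did not overlap.

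**Figure D2:**
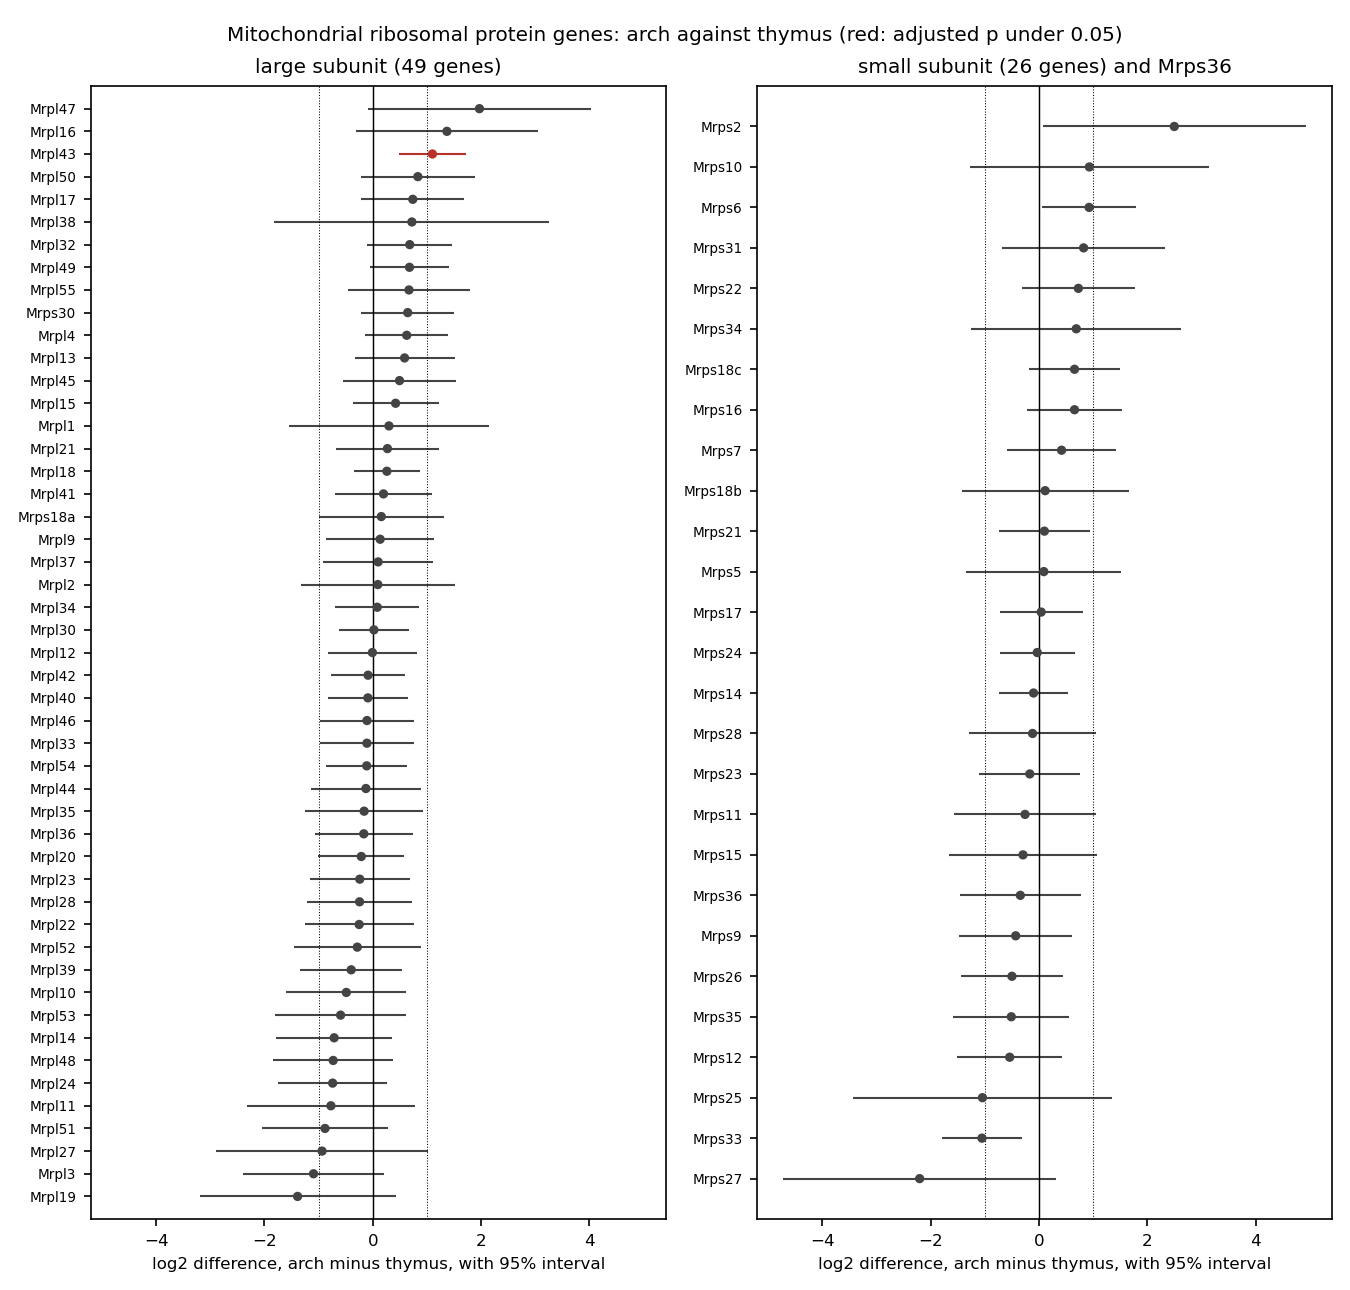
Each row is 1 gene, with the log2 difference of arch minus thymus (point) and its 95% interval (line), for the large subunit on the left and the small subunit with Mrps36 on the right; dotted lines mark 2-fold. Mrpl43 at 1.10 is the only called gene (red), most points lie between the dotted lines, and the widest intervals belong to genes such as Mrps2, Mrps27 and Mrpl38.

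Mrpl43 encodes a large-subunit protein that bacteria lack (chr19:45004829-45006442, minus strand, GRCm38). Its normalised read counts were 2535, 3771, 1978 and 2867 in the thymus pools, 3015, 3454, 3962 and 3674 in the adipose pools, and 4113, 7997, 7029 and 5041 in the arch pools. Every arch pool was above every thymus and every adipose pool, while the thymus and adipose ranges overlapped. The arch mean was 6045 ± 1781 and the thymus mean 2788 ± 751 (SD, n = 4), a log2 difference of 1.10 ± 0.29 (SE; limma adjusted p = 0.0293). Against adipose tissue it was 0.73 ± 0.29 (limma adjusted p = 0.422). The call in arch against thymus did not hold in every setting: without the 3 pools with the highest marker sums the difference was 0.98 (limma adjusted p = 0.132). Arch pools 1 and 3, which remained, were above all thymus pools. With these pools 27.0% of all genes tested and 19.7% of members did not overlap, in either direction. Without the 3 pools that had the fewest reads per library (thymus 3, arch 2 and arch 4) it was 0.83 (limma adjusted p = 0.202). Leaving out 1 pool ended the call for thymus pools 1, 3 and 4 and arch pools 2 and 3, with differences of 0.95 to 1.13 (limma adjusted p = 0.0607 to 0.0812). A fit of the 2 tissues alone gave 1.10 (limma adjusted p = 0.0601). Mrpl43 shares 385 exon bases with Twnk, a helicase gene of mitochondrial DNA on the opposite strand, and strand use in counting is not given in the sources used here. Twnk, listed as Peo1, was at 705, 352, 1004 and 365 in thymus and at 743, 1008, 1051 and 2436 in arch, a difference of 1.07 ± 0.64 (limma adjusted p = 0.339). Without strand, reads of the shared bases cannot be told apart between these genes.

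Among the other large-subunit genes, the largest positive differences in arch against thymus, both larger than that of Mrpl43, were not called. Mrpl47, a homologue of a bacterial protein near the tunnel exit, differed by 1.97 ± 0.98 (limma adjusted p = 0.239); its thymus pools were 345, 358, 0 and 939 and its arch pools 992, 447, 839 and 1511. The pool at 0 is thymus pool 3, where a count of 0 allows up to 4.37 normalised reads. Mrpl16, a protein next to the peptidyl transferase centre, differed by 1.37 ± 0.80 (limma adjusted p = 0.326), with 46.6 in thymus pool 3 and 499 to 966 in the other thymus pools. Both differences thus included 1 low thymus pool, and without thymus pool 3 they were 0.80 and 0.48.

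Mrpl17, a large-subunit protein with a bacterial homologue (chr7:105803206-105811099), had 1734, 1596, 695 and 1114 normalised reads in thymus, 1169, 1044, 1403 and 511 in adipose tissue and 1760, 2334, 1929 and 2161 in arch. Its arch pools were above all 8 other pools, with the nearest thymus pool just below the lowest arch pool. The difference from thymus was 0.74 ± 0.45 (limma adjusted p = 0.352) and from adipose tissue 1.05 ± 0.45 (limma adjusted p = 0.45).

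On the lower side, Mrpl19 differed by -1.39 ± 0.86 (limma adjusted p = 0.357) and Mrpl3, a protein that reaches towards the peptidyl transferase centre, by -1.09 ± 0.62 (limma adjusted p = 0.311). For Mrpl3 the arch pools were 1938, 1440, 778 and 146 and the thymus pools 2047, 1714, 2073 and 1029, so the ranges overlapped and arch pool 4 was the lowest. Without arch pool 4 the difference of Mrpl3 was -0.35, and that of Mrpl19 was -0.70 without arch pool 2. Mrpl19 shares 1962 of its 5000 exon bases with Gcfc2 on the opposite strand.

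In the small subunit, Mrps33, which bacteria lack (chr6:39801804-39810988), was at 3189, 2857, 4932 and 3519 in thymus, at 1808, 3273, 3040 and 1802 in adipose tissue and at 2137, 1170, 1435 and 2318 in arch. Every arch pool was below every thymus pool, and the adipose pools overlapped both groups. The means were 3624 ± 913 in thymus and 1765 ± 550 in arch (SD, n = 4). The difference of -1.05 ± 0.35 did not pass the limma test (adjusted p = 0.0836) or that of edgeR (adjusted p = 0.114), and passed that of DESeq2 (adjusted p = 0.0183).

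Mrps6, a homologue of a protein of the bacterial platform, was at 1706, 1465, 839 and 1100 in thymus, at 3039, 2129, 2751 and 1623 in adipose tissue and at 2613, 3257, 3104 and 1171 in arch. Only arch pool 4 and adipose pool 4 lay within the thymus range. The differences from thymus were 0.93 ± 0.41 in arch (limma adjusted p = 0.188) and 0.90 ± 0.41 in adipose tissue (limma adjusted p = 0.364), which share the thymus pools. Mrps6 shares 159 exon bases on the same strand with Slc5a3, a myo-inositol transporter gene. Slc5a3 was itself called higher in arch, by 3.91 ± 1.09 (limma adjusted p = 0.0378), but not by edgeR (adjusted p = 0.306), by DESeq2 (adjusted p = 0.0969) or by limma without the 3 pools with the highest marker sums (3.44, adjusted p = 0.204). Reads of the shared bases could belong to either gene.

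Mrps2, a small-subunit protein with a bacterial homologue, had the largest positive difference of the family. It was at 406, 0, 0 and 928 in thymus, at 1277, 1105, 1072 and 597 in adipose tissue and at 326, 1914, 892 and 250 in arch. A count of 0 allows up to 2.24 and 4.37 normalised reads in thymus pools 2 and 3. The thymus range overlapped both other ranges, and the differences of 2.50 ± 1.16 in arch and 3.14 ± 1.16 in adipose tissue were not called (limma adjusted p = 0.207 for both).

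Mrps27, a pentatricopeptide repeat protein of the small subunit, had the largest negative difference. It was at 1340, 190, 811 and 987 in thymus, at 0, 248, 303 and 402 in adipose tissue and at 184, 645, 149 and 3.11 in arch. Thymus pool 2 lay within both other ranges. The differences were -2.20 ± 1.20 in arch (limma adjusted p = 0.288) and -2.09 ± 1.20 in adipose tissue (limma adjusted p = 0.517). They were -1.30 without arch pool 4 and -1.07 without adipose pool 1.

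For Mrps10 and Mrps25 the sign of the difference was not stable. Mrps10 differed by 0.93 ± 1.05 in arch against thymus (limma adjusted p = 0.64), by -0.36 without thymus pool 3, where it had no read, and with all pools by -0.20 in edgeR and -0.21 in DESeq2. Mrps25, which shares 3533 of its 6073 exon bases with Nr2c2 on the opposite strand, differed by -1.04 ± 1.14 (limma adjusted p = 0.629), and by 0.27 without arch pool 2, where it had no read.

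**Figure D3:**
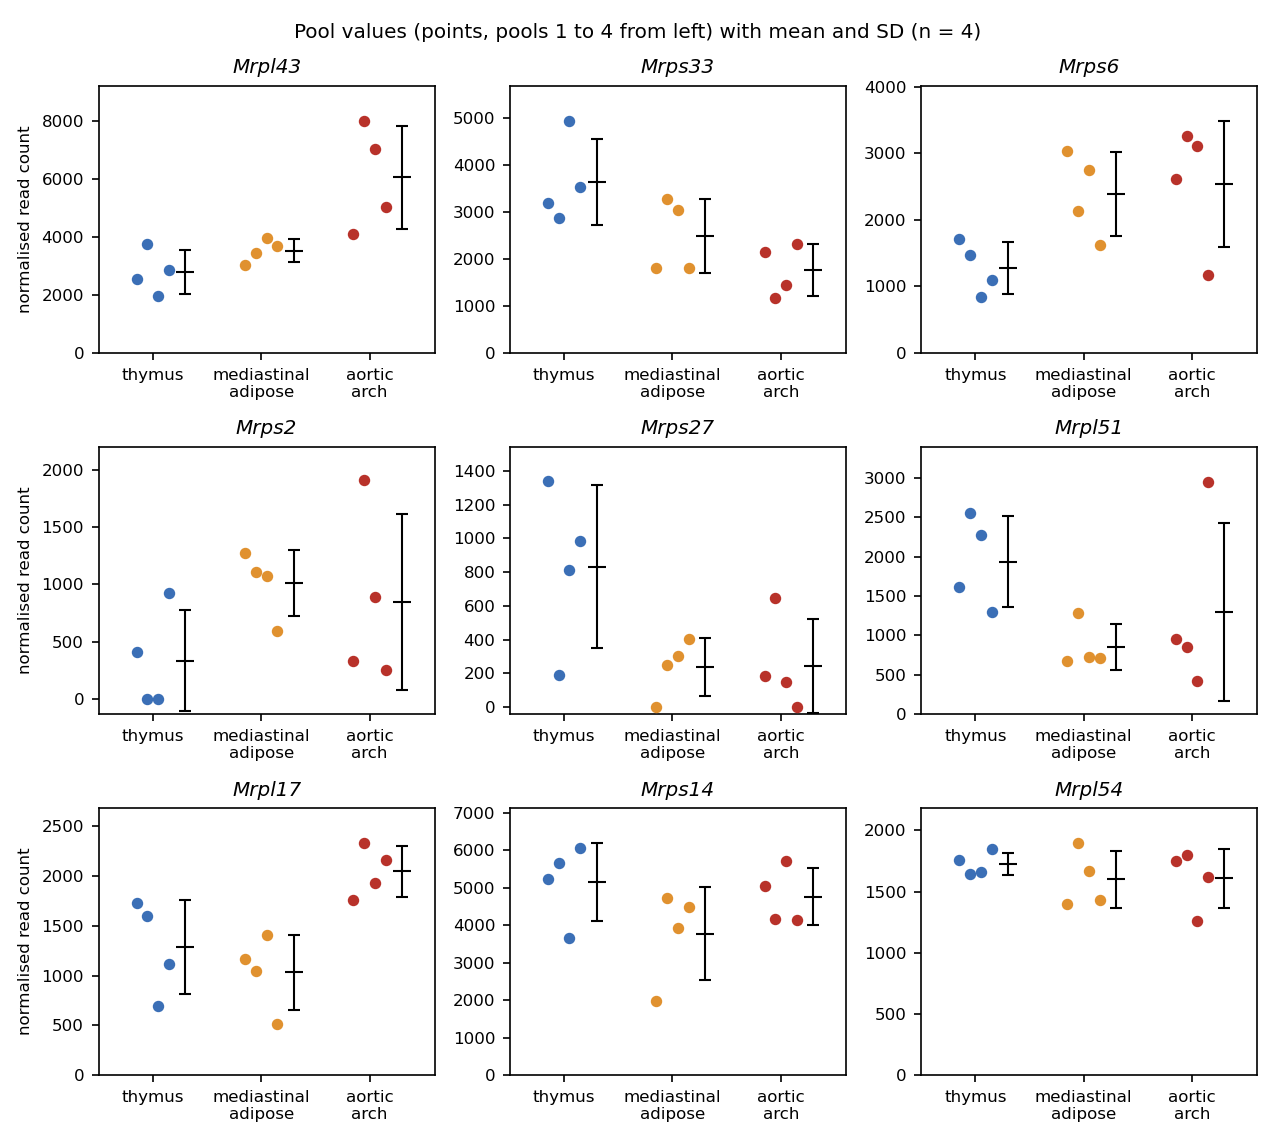
Normalised read counts of 9 members in the 4 pools of each tissue (points), with mean and SD beside them. Arch pools stand above thymus pools for Mrpl43 and Mrpl17 and below them for Mrps33; Mrps2 and Mrps27 include pools at 0, and Mrps14 and Mrpl54 have overlapping groups.

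In adipose tissue against thymus, 0 of 76 members were called, where 2.84% of all genes tested were. By limma 3 members had an unadjusted p under 0.05, Mrps2 and Mrps6 higher and Mrpl51 lower (3.95%, against 12.8% of all genes tested). On the recovered reads edgeR and DESeq2 also called 0 members, where they called 212 and 705 of all genes. By these tools 2 and 4 members had an unadjusted p under 0.05. Of the 76, 52 had a difference below 0 (68.4%, against 50.5% of all genes tested), with a median of -0.16 against -0.01. The median followed the pools unequally: relative to the thymus mean it was -0.49, 0.01, 0.15 and -0.26 in adipose pools 1 to 4. Without adipose pool 1 the median over members was -0.05.

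Mrpl51, a large-subunit protein that bacteria lack, was at 678, 1282, 725 and 712 in adipose tissue and at 1620, 2552, 2277 and 1295 in thymus. The groups did not overlap, although adipose pool 2 and thymus pool 4 were close. The difference was -1.17 ± 0.55 (limma adjusted p = 0.386). In arch, pool 4 reached 2949, above all thymus pools, and the other arch pools were between 420 and 954. Mrpl27, a homologue of a bacterial protein at the peptidyl transferase centre, was the other member without overlap, at 187, 524, 939 and 579 in adipose tissue against 1246, 1049, 1843 and 1133 in thymus (-1.37 ± 0.93, limma adjusted p = 0.62). For comparison, 10.5% of all genes tested had pool values without overlap.

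The other members with the largest adipose differences were not called either. Mrpl36, Mrpl44 and Mrps7 differed from thymus by -0.90 ± 0.43, -0.86 ± 0.48 and 0.80 ± 0.48 (limma adjusted p = 0.392, 0.495 and 0.544). For Mrps7, a protein of the small-subunit head, the adipose pools lay close together (2496 to 2855) and inside a wide thymus range (596 to 3893). Mrpl47 and Mrps10 differed by 1.43 ± 0.98 and 1.28 ± 1.05 (limma adjusted p = 0.622 and 0.708), again with thymus pool 3 at 0 in both.

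In arch against adipose tissue, 0 of 76 members were called, where 0.176% of all genes tested were. By limma 3 members had an unadjusted p under 0.05, all higher in arch: Mrpl17, Mrpl32 and Mrpl43 (3.95%, against 10.5% of all genes tested). Their limma adjusted p values were 0.45, 0.468 and 0.422, and edgeR and DESeq2 also called 0 (5 members each at an unadjusted p under 0.05). Of all genes these 2 tools called 8 and 289. The pool values of these 3 and of Mrpl49 did not overlap between the tissues, 5.26% of members against 5.35% of all genes tested. Of the 76 members, 49 had a difference above 0, with a median of 0.18 for members and -0.17 for all genes tested. Without the 3 pools with the highest marker sums these medians were -0.03 and 0.01.

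The largest differences between the 2 peripheral tissues were 1.11 ± 1.21 for Mrpl38, 1.02 ± 0.88 for Mrpl1, 0.97 ± 0.71 for Mrps31 and 0.92 ± 0.80 for Mrpl16, beside Mrpl17. Mrpl38 was the most variable member of the family: its arch pools ran from 160 to 2889, its adipose pools from 56.9 to 1037 and its thymus pools from 8.74 to 1896. On the lower side were Mrps25 (-1.34 ± 1.14), Mrpl19 (-0.98 ± 0.86), Mrpl11, a protein of the stalk base where translation factors bind (-0.95 ± 0.74), Mrpl3 (-0.93 ± 0.62) and Mrpl48 (-0.66 ± 0.53). The limma adjusted p values of these 9 genes, Mrpl17 aside, lay between 0.626 and 0.782.

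Several abundant members were measured precisely enough for a narrow interval. Mrps14, a small-subunit protein with a bacterial homologue, was at 5235, 5657, 3672 and 6065 in thymus, at 1975, 4723, 3926 and 4493 in adipose tissue and at 5055, 4171, 5706 and 4143 in arch. Its arch pools lay within the thymus range, and the 95% interval of the difference ran from -0.73 to 0.53. Mrpl18, a large-subunit protein with a bacterial homologue, was at 3376 to 5874 in thymus, 3136 to 6332 in adipose tissue and 4865 to 7599 in arch, with an interval of -0.35 to 0.87 in arch against thymus. Mrpl54, named after its values were seen because it varied least between pools, was between 1263 and 1898 in all 12 pools, and its interval was -0.86 to 0.63. These 3 intervals lie within 2-fold in both directions.

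The spread between pools of 1 tissue is given without a test. The median residual SD on the log2 scale was 0.62 for the 76 members, 1.08 for all genes tested, and 0.86 for the 5624 genes within the members' range of mean level. It ran from 0.18 (Mrpl54) to 2.07 (Mrpl38), with 26 members under 0.5 and 13 over 1. At least 1 pool without a read was seen for 6.58% of members (Mrpl47, Mrps2, Mrps10, Mrps25 and Mrps27), for 34.4% of all genes tested and for 17.6% of the genes within that range of level. By pool, the members without a read numbered 3 in thymus pool 3 and 1 each in thymus pool 2, adipose pool 1 and arch pool 2. Thymus pool 3, with 13473516 recovered reads, held both the lowest and the highest of the 12 values for 15 members each.

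**Figure D4:**
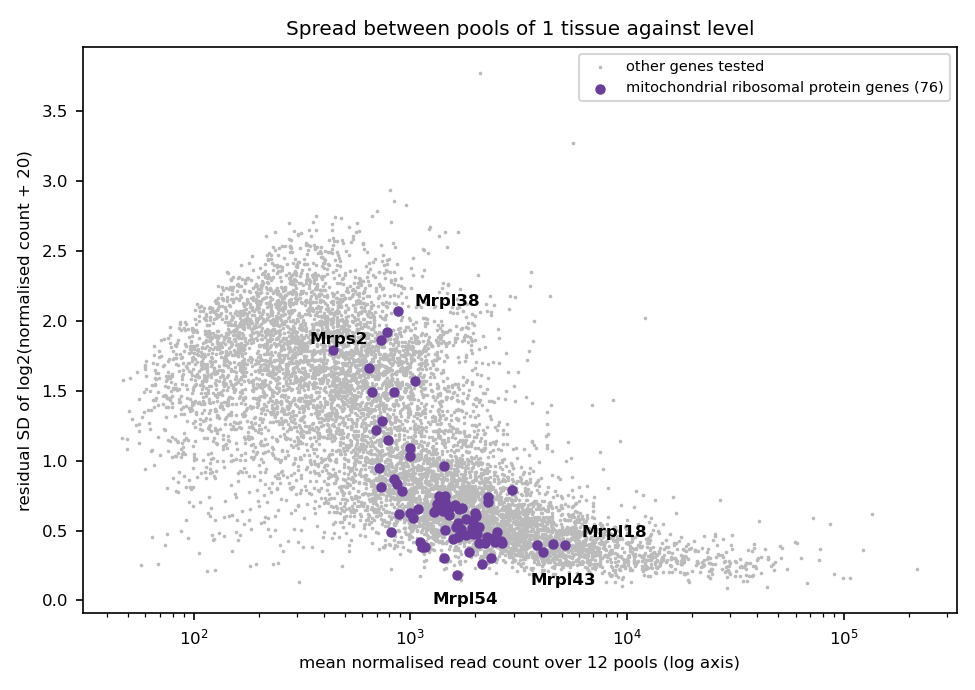
Each point is 1 tested gene, with its mean normalised read count over 12 pools (x, log axis) and the residual SD of its log2 values within tissues (y); the 76 members are purple and all other genes grey. Most members lie in the lower part of the cloud at their level, Mrpl54 at 0.18 is the lowest, and Mrps2 and Mrpl38 lie at 1.87 and 2.07.

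By role, the median difference in arch against thymus was 0.01 for the 30 large-subunit genes with bacterial homologues, -0.09 for the 19 large-subunit genes without them, 0.07 for the 16 small-subunit genes with bacterial homologues and -0.33 for the 10 without. Differences between these groups were not tested. In adipose tissue against thymus the medians were -0.16, -0.16, -0.08 and -0.29 in the same order.

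Other genes of mitochondrial translation were taken from lists of 112 symbols, of which 91 were tested. The 7 ribosomal protein genes with other symbols (Dap3, Ptcd3, Chchd1, Aurkaip1, Gadd45gip1, Ict1 and Mrp63) had 0 limma calls in each comparison. By limma 2 of them, Ict1 and Mrp63, had an unadjusted p under 0.05 in arch against thymus (28.6%, against 22.7% of all genes tested). In the other comparisons 0 had. The edgeR test called 0 in each comparison. DESeq2 called 1, Ict1, in arch against thymus, where it called 1257 of all genes. Ict1, a peptidyl-tRNA hydrolase built into the large subunit, was at 2809, 4095, 4760 and 4756 in thymus, at 1823, 5559, 2124 and 2631 in adipose tissue and at 1549, 2087, 1766 and 2320 in arch. All arch pools were below all thymus pools, where 13.2% of all genes tested did not overlap in either direction. The difference of Ict1 was -1.07 ± 0.36 (limma adjusted p = 0.0844, DESeq2 adjusted p = 0.0294).

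In arch against thymus limma called 2 of all 91 higher and 2 lower (4.40%, against 6.57% of all genes tested). It called 1 higher in adipose tissue against thymus (1.10%, against 2.84%) and 0 in arch against adipose tissue (against 0.176%). By edgeR these counts were 1 higher, 1 higher and 0, and by DESeq2 2 higher with 5 lower, 2 higher with 1 lower, and 1 higher with 1 lower. Of all genes edgeR called 278 higher with 87 lower, 170 with 42, and 4 with 4, in the same order. For DESeq2 these were 771 higher with 486 lower, 519 with 186, and 118 with 171. At an unadjusted p under 0.05 there were 3 higher and 16 lower in arch against thymus, and 1 higher and 8 lower in arch against adipose tissue. These are 20.9% and 9.89% of the list, against 22.7% and 10.5% of all genes tested. The median difference in arch against thymus was -0.67, lower than the -0.02 of the 76 members and the -0.20 of all genes tested; the difference between these lists was not tested. Without the 3 pools with the highest marker sums the median of the 91 was -0.17. In that fit 1 was called higher and 0 lower, where 3.79% of all genes tested were called. With all pools the median of the 91 was -0.21 by edgeR and -0.25 by DESeq2. By limma with all pools the median was -0.87 for 14 translation factors and -0.82 for 30 assembly and RNA modification factors. It was -0.77 for 17 aminoacyl-tRNA synthetases and related enzymes and -0.51 for 23 genes of mitochondrial transcription and RNA processing. In the same order these medians were -0.73, -0.16, -0.38 and -0.06 by edgeR and -0.78, -0.18, -0.37 and -0.09 by DESeq2. By limma without the 3 pools they were -0.64, -0.15, -0.04 and -0.32.

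Polg2, the accessory subunit of the mitochondrial DNA polymerase, was at 551, 375, 320 and 176 in thymus, at 1880, 1975, 1561 and 1746 in adipose tissue and at 2872, 1794, 3630 and 5467 in arch. Thymus lay below both other tissues without overlap, and Polg2 rose by 3.19 ± 0.48 in arch and 2.37 ± 0.48 in adipose tissue (limma adjusted p = 0.000293 and 0.00633). Tfb2m, a transcription factor of mitochondrial DNA, rose in arch by 2.81 ± 0.71 (limma adjusted p = 0.0223), from 422, 536, 26.2 and 846 in thymus to 2165, 1626, 2632 and 2441 in arch.

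Taco1, an activator of the translation of a cytochrome oxidase subunit, fell. It was at 31.7, 309, 463 and 461 in thymus and had no read in any arch pool, a difference of -3.65 ± 1.02 (limma adjusted p = 0.0394). With a floor of 3 reads per arch pool, the thymus mean was 83.0-fold the mean floor, a ratio that leaves out the spread between pools. Thymus pool 1, at 31.7, was nearer to the arch floors, of which the highest was 5.71. Pars2, the mitochondrial prolyl-tRNA synthetase, fell from 622, 680, 498 and 465 in thymus to 0, 1.90, 55.7 and 0 in arch, a difference of -4.34 ± 1.11 (limma adjusted p = 0.0239). Without the 3 pools with the highest marker sums Polg2 was still called in arch and adipose tissue (limma adjusted p = 0.00499 and 0.0186), while Tfb2m, Taco1 and Pars2 were not (limma adjusted p = 0.108, 0.15 and 0.119). By edgeR Polg2 was called in arch (adjusted p = 0.000589), and Tfb2m, Taco1 and Pars2 were not (adjusted p = 0.0892, 0.0732 and 0.244). DESeq2 called all 4 (adjusted p = 1.83e-13, 0.0103, 0.000166 and 0.0267 in the same order). With 1 pool left out at a time, the limma call in arch held in 12 of 12 fits for Polg2, in 11 for Tfb2m (lost without arch pool 3), in 8 for Pars2 (lost without thymus pools 1, 2 and 4 and arch pool 2) and in 4 for Taco1 (held without thymus pool 1 and adipose pools 1, 2 and 3).

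The cytosolic ribosomal protein genes gave other counts than the mitochondrial ones. In arch against thymus limma called 11 of 79 tested higher and 0 lower, where 3.99% of all genes tested were called higher. The median difference was 0.48, against -0.20 for all genes tested. By edgeR 7 were called higher and by DESeq2 26, with 0 lower in both. Of all genes these 2 tools called 278 and 771 higher. At an unadjusted p under 0.05, 45 of 79 were higher in arch than in thymus (57.0%, against 22.7% of all genes in either direction). Without the 3 pools with the highest marker sums 1 of 79 was called higher, 11 had an unadjusted p under 0.05 and the median was 0.21. In that fit limma called 222 of all 9106 genes higher, and 17.3% of all genes had an unadjusted p under 0.05. The median in arch against adipose tissue was 0.41, where limma and edgeR called 0 (by limma 34 had an unadjusted p under 0.05) and DESeq2 called 2. Of all genes tested limma called 0.176% there, and 10.5% had an unadjusted p under 0.05. Of 78 nuclear genes of the respiratory chain limma called 0 higher and 1 lower in arch against thymus (1.28%, against 6.57% of all genes tested). Their median was -0.15. By edgeR 0 were called higher and 1 lower, by DESeq2 2 and 5, and by limma without the 3 pools 0 and 1. Of all genes these 3 fits called 87, 486 and 123 lower. The differences between these lists and the 76 members were not tested.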

How the data were processed

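The members and gene lists were chosen with earlier results of these data known. Per the submitters' processing notes, FastQC 0.11.5, STAR 2.6.0c and the build GRCm38 were used; how reads were counted over genes, and whether by strand, is not given in the sources used here. Each column that the authors deposited holds a normalised signal for each gene in each pool, with the libraries of a pool joined. All 120369 values above 0 (100.0%) are whole multiples of the column's smallest value within 0.01, so reads could be recovered. The deposited signal is these reads divided by 1 factor per pool, equal to the DESeq2 size factor of the recovered reads. The test chosen for deposited values that are not raw counts was limma 3.58.1 (R 4.3.3, trend) on log2(value + 20). It used all 12 pools, with tissue as the only term, for genes at 100 or more in at least 4 pools. Alternatives on recovered reads were edgeR 4.0.16, over the same 9106 genes, and DESeq2 1.42.0, over all 13765 genes of the table. Other alternatives were other pseudocounts, filters and scalings, sample weights, a block for the pool number, and pools left out. The code was tested on simulated data. Intervals are at 95%; a count of 0 allows up to 3 reads, for counting error only. Named members are those called, the 5 largest differences in each direction per comparison, and the 3 highest and 3 lowest means; others are named where their unadjusted p or pool ranges are counted. Positions, exon lengths and overlaps come from the GENCODE annotation of GRCm38, in which all 76 symbols were found, and promoters from RefSeq. The fit without 3 pools with the highest sums of markers of other cells was added after seeing the data.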

Additional observations from a re-analysis of the deposited data

Results flagged for a closer look

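In 4 of 93 groups of 4 pools the highest value stood apart from the others by Dixon's criterion at 95%, and chance gives about 1 in 20. Mrpl51 was at 1282 in adipose pool 2, while the other adipose pools lay between 678 and 725. Mrps31 was at 1084 in thymus pool 3, while the other thymus pools lay between 568 and 612. The ratio of large-subunit to small-subunit reads was 2.54 in arch pool 2, the pool with raised smooth muscle and macrophage markers, against 2.19 to 2.22 in the other arch pools. Pars2 was at 55.7 in arch pool 3, against 0 to 1.90 in the other arch pools.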

How the results depend on the processing

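With 1 pool left out, Mrps10 ranged from -0.36 to 1.68 in arch and from -0.01 to 2.02 in adipose tissue against thymus, and Mrps25 from -1.91 to 0.27 in arch against thymus. The sign of the difference turned only for Mrps10 and Mrps25, neither of them called, among the 35 differences of single genes examined. Mrps10 in arch against thymus was -0.20 by edgeR, -0.21 by DESeq2, -0.36 without thymus pool 3 and -0.29 without the 3 pools of fewest reads per library, and in adipose tissue against thymus it was -0.008 in the last 2 of these settings. Mrps25 in arch against thymus was 0.27 without arch pool 2, 0.76 without those 3 pools of few reads and 0.67 without the 3 pools with the highest sums of markers of other cells, and in arch against adipose tissue 0.37 without those 3 pools of few reads. Mrps10 had no read in thymus pool 3 and Mrps25 none in arch pool 2; for edgeR and DESeq2 the cause was not tested.

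The number of members called higher in arch against thymus was 0 in the fit of 2 tissues alone. It was also 0 without those 3 pools of few reads, and without the 3 pools with the highest sums of markers of other cells. With 1 pool left out it was 0 to 1. All of these fits used fewer pools than the main fit, and the cause was not tested. DESeq2 called 1 member lower, Mrps33 (-1.04, adjusted p = 0.0183); over the other alternatives its adjusted p lay between 0.0609 and 0.286. In both other comparisons every alternative called 0 members. The number of all genes called in arch against thymus was 598, against 365 by edgeR, 1257 by DESeq2, 422 in the fit of 2 tissues alone, 308 without those 3 pools of few reads and 345 without the 3 pools with the highest sums of markers of other cells. Quantile normalisation moved the median of all genes in arch against thymus from -0.20 to -0.05, and that of the members from -0.02 to -0.06.

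The deviations of same-numbered pools of different tissues correlated between -0.03 and 0.08, and those of differently numbered pools between -0.09 and 0.07. Values this close to 0 cannot show whether same-numbered pools came from the same mice, so pairing was not settled. With the pool number as a replicate block 1 member, Mrpl43, was called higher in arch against thymus (adjusted p = 0.0333) and 608 of all genes were called. The spread between pools, with 4 per tissue and as few as 11577253 reads in a pool, limits these results: the median SE of a member's difference was 0.48.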

Other observations

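Of the 76 genes, 18 were counted with a protein-coding neighbour that starts close by in the opposite direction. The distance between starts ran from -29 bases, a short overlap (Mrpl36 and Ndufs6), to 935 bases (Mrpl41 and Pnpla7). Pairs that overlap further at their starts were not counted. Among these are the members Mrpl46 and Mrps11, which start in opposite directions at chr7:78783531 and chr7:78783119. Of the 18 neighbours counted, 15 were tested, and by limma 0 were called in any comparison at adjusted p under 0.05. Of all genes tested 6.57% were called in arch against thymus, 2.84% in adipose tissue against thymus and 0.176% in arch against adipose tissue. The median difference of the neighbours in arch against thymus was -0.72, against -0.20 for all genes tested. In arch against thymus 9 of these 15 pairs had differences of the same sign and 6 of opposite sign. Among the latter, Mrps34 and Eme2 differed by 0.69 and -2.51, and Mrpl41 and Pnpla7 by 0.20 and -2.36 (limma adjusted p of the neighbours = 0.147 and 0.12). Mrpl49 and its neighbour Fau, which encodes a ribosomal protein of the cytosol fused to a ubiquitin-like protein, differed by 0.68 ± 0.35 and 0.58 ± 0.19 (limma adjusted p = 0.255 and 0.0762). Mrpl32 and its neighbour Psma2, a proteasome subunit, differed by 0.68 ± 0.37 and 0.35 ± 0.21 (limma adjusted p = 0.289 and 0.345). Mrpl51 and its neighbour Ncapd2, a condensin subunit, differed by -0.88 ± 0.55 and -0.92 ± 0.48 (limma adjusted p = 0.361 and 0.266). These pairs were chosen after their values were seen.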
